A study of Mus musculus with 16 samples.

Results

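Transcripts of 10 genes by which microglia and other tissue macrophages are recognised were followed on every array: the C1q chains C1qa, C1qb and C1qc, the receptors Csf1r and Cx3cr1, the lysosomal genes Laptm5, Lyz2, Cd68 and Ctss, and Aif1. The members were chosen by name. Every probe set that the platform annotation assigns to exactly 1 gene symbol, with that symbol on the list, was taken whatever its signal, although the list itself was drawn up with earlier results of these data known. This gave 15 probe sets for the 10 genes, among 8251 named genes and 12422 tested probe sets. C1qb, Csf1r, Laptm5, Lyz2 and Cd68 had a pair of probe sets each, and the other 5 genes had 1 each. A further probe set assigned to both Lyz1 and Lyz2 was left out.

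The 4 groups were adult mouse retina and postnatal day 1 mouse cortex, each hybridised at a first site (5 arrays per tissue) and again at a site called site 2 (3 arrays per tissue), for 16 arrays. Labelling turned about 10 µg of total RNA into biotin-carrying cRNA for each array. For the first site the labels name 350 C57/B6 mice as donors of the retina pool and 19 mice as donors of the cortex pool. For cortex the labels conflict on strain, with C57/B6 in one place and Swiss-Webster in another, so organ, age and possibly strain differ together between the tissues and cannot be told apart. The animals carried no stated transgene or treatment. All arrays of a tissue took aliquots of one RNA pool. The p-values therefore rest on technical spread alone, and variation among animals was not measured. In such whole-tissue RNA, fewer cells of a type and less RNA per cell cannot be told apart.

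Microglia are the resident macrophages of the brain and retina. They depend on signalling through the receptor Csf1r and take up debris, dying cells and synapses into their lysosomes. They are also the main source in the brain of C1q, the recognition molecule that starts the classical complement pathway. C1q is assembled from A, B and C chains, encoded by C1qa, C1qb and C1qc, so each chain's transcript reads on the same protein.

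The genes C1qb, C1qc and C1qa lie side by side on mouse chromosome 4, between Gm31536 and Epha8 in RefSeq assembly GRCm38.p6. RefSeq promoter windows of that assembly were at hand for 8 of the 10 genes. They were searched on both strands for GGAAGT, a sequence that the macrophage transcription factor PU.1 and other ETS factors are known to bind, and for the longer forms AGGAAGT and GAGGAAGT, each of which contains the one before it. The motifs were picked after the sequences had been seen. In the 250 bases before the start, 4 of the 8 genes (C1qb, C1qc, Laptm5 and Lyz2) held GGAAGT, against 19.7% of 32851 mouse windows of that length. AGGAAGT was in 3 (C1qb, C1qc and Lyz2), against 7.69%, and GAGGAAGT in 1 (C1qc), against 2.44%. The 3 windows with AGGAAGT are shown 5′ to 3′ on the gene's strand as examples of the matches. Cd68, which was called lower in retina at both sites, holds no GGAAGT in its window. Capitals mark the motif core, which reads ACTTCC here because it lies on the opposite strand. C1qb is at chr4:136886201-136886450, C1qc at chr4:136892915-136893164 and Lyz2 at chr10:117282273-117282522, all on the minus strand.
C1qb: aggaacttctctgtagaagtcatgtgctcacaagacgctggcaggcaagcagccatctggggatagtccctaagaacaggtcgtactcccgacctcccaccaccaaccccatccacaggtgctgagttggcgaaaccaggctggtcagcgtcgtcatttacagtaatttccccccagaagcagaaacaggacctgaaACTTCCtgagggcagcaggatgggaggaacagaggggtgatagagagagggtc
C1qc: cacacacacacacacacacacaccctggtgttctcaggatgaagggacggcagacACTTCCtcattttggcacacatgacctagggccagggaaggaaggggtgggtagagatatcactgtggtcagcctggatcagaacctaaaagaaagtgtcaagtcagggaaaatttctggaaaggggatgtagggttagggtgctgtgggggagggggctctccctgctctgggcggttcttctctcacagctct
Lyz2: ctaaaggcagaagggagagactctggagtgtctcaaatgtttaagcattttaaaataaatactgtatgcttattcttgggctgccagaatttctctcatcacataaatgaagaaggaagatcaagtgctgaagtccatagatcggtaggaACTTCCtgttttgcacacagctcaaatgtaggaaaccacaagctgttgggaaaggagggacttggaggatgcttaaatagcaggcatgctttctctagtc
The core covers bases 53 to 48 before the start in C1qb, 195 to 190 in C1qc and 100 to 95 in Lyz2. These are matches of letters only. No binding was measured on these arrays.

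The deposited values are linear intensities, 1 per probe set and array. Array medians ran from 45.7 to 216, so every array was scaled to a median of 100, and levels are given as this scaled intensity. Differences are log2 differences, retina minus cortex unless stated, on the log2(scaled intensity + 16) scale, which understates changes of dim probe sets. They were tested with limma with Benjamini-Hochberg adjustment over all probe sets, and a difference is called at an adjusted p under 0.05. The highest of 13 control probe sets without added target gave a floor on each array, at 12.6 to 37.0 in scaled intensity. Replicate 2 of the site 2 cortex stood apart: it was the dimmest array, and its mean correlation with its group was 0.956, against 0.973 or more for every other array. Both tissues matched their labels, since all 9 measured retina identity genes were higher and all 5 measured cortex identity genes lower in retina at both sites.

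At the first site, 6 of the 10 genes were lower in retina than in cortex (C1qb, C1qc, Csf1r, Laptm5, Lyz2 and Cd68), 1 was higher (Ctss), and C1qa, Cx3cr1 and Aif1 did not pass the test. Most genes on the array that could be named differ between these tissues, so the counts have to be read against a high background: 28.5% of all 8251 genes were called lower and 25.8% higher, 54.3% in all. The median difference over the 10 genes was -0.34, beside -0.02 over all genes. At site 2, 3 genes were called lower (C1qc, Laptm5 and Cd68), against a background of 17.4%, and none was called higher by limma, against 19.9% (37.3% of all genes in either direction). None was higher at an unadjusted p under 0.05 either, whereas Ctss was called there with all 16 arrays in one fit. The site 2 median over the 10 genes was -0.44, beside -0.03 over all genes. Summed over the 10 genes, scaled intensity was 1465 to 1553 on the retina arrays and 1668 to 1801 on the cortex arrays of the first site. At site 2 the sums were 1496 to 1614 in retina and 1691 to 2000 in cortex. The sums of the tissues did not overlap at either site.

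**Figure D1:**
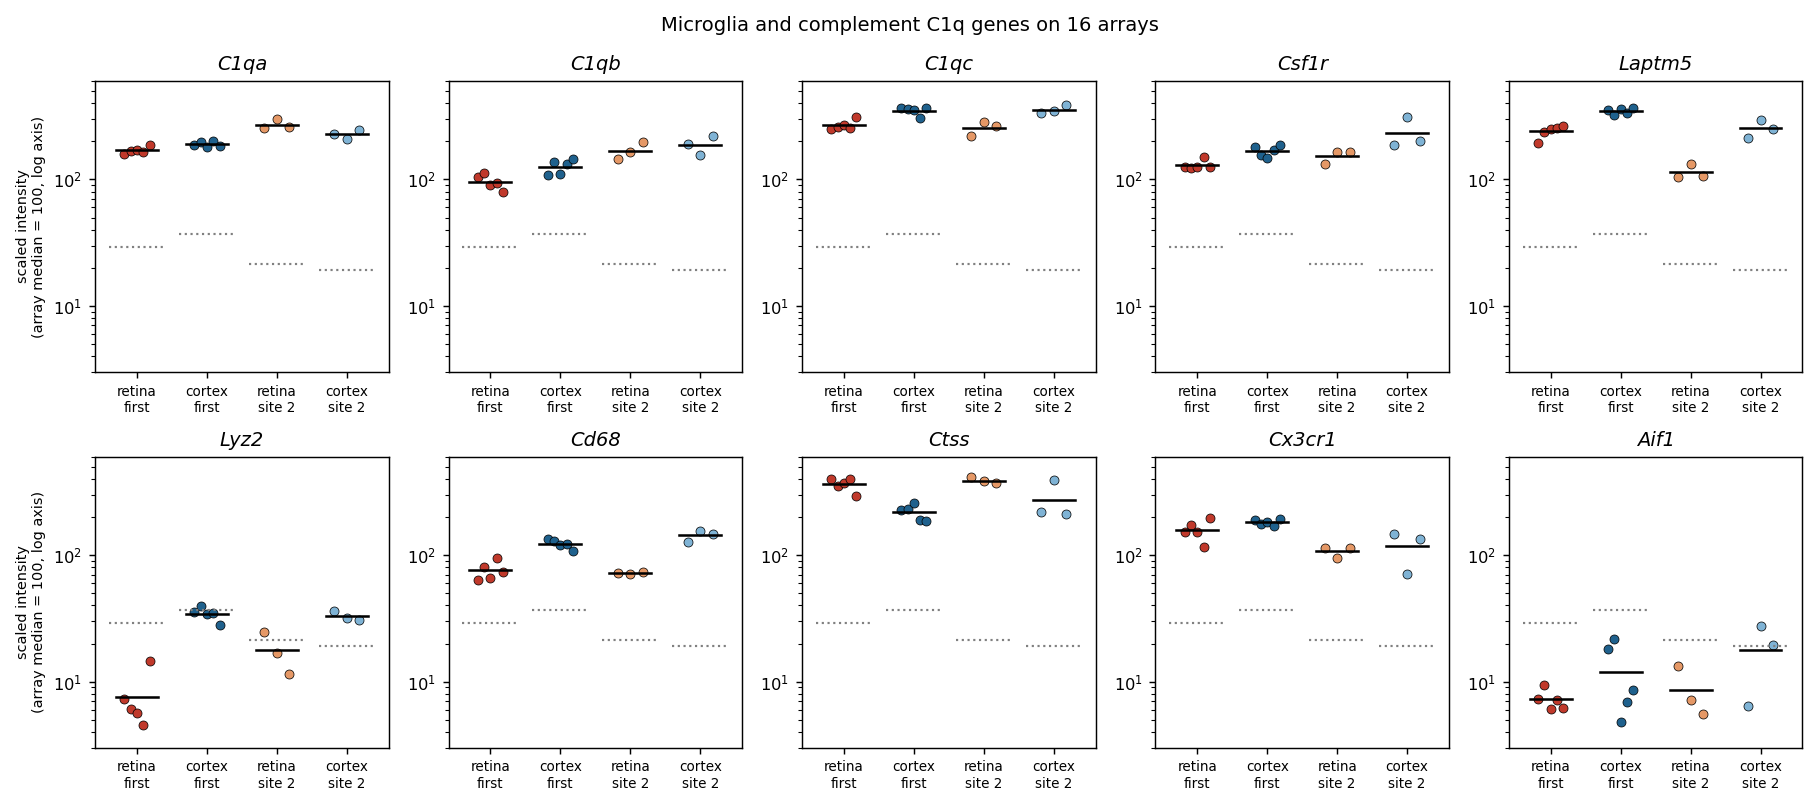
Scaled intensity (log axis, array median = 100) of each gene's brightest probe set in the 4 groups. Points are arrays, bars are group means, and dotted lines mark the highest no-target control among a group's arrays. Laptm5, Lyz2 and Cd68 separate the tissues at both sites with retina lower, Ctss is higher in retina on all first-site arrays, and Aif1 lies at or under the controls on all but 2 site 2 cortex arrays.

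Among the C1q chains, C1qc was called lower in retina at both sites, C1qb was called lower at the first site, and C1qa passed the test at neither. C1qc read 253, 259, 272, 255 and 311 on the first-site retina arrays and 364, 362, 354, 306 and 367 on the cortex arrays. The groups overlapped through 1 array each, the brightest retina array at 311 and the dimmest cortex array at 306. Site 2 retina arrays read 221, 283 and 264 and the cortex arrays 337, 346 and 386, with no overlap. The C1qc difference was -0.36 (SE 0.075, limma adjusted p = 0.00128) at the first site and -0.46 (SE 0.13, limma adjusted p = 0.0367) at site 2. The site 2 call was lost without any 1 of 5 of the 6 arrays (limma adjusted p 0.0613 to 0.119) and held without cortex replicate 2.

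C1qb, read from its brighter probe set, gave 105, 112, 89.8, 93.5 and 80.0 in first-site retina and 108, 137, 111, 131 and 144 in first-site cortex. A single retina array, at 112, lay inside the range of cortex. The difference was -0.34 (SE 0.11, limma adjusted p = 0.0236), and the call was lost when retina replicate 3 or 5, or cortex replicate 2, 4 or 5, was left out (limma adjusted p 0.0506 to 0.0588). Site 2 retina read 145, 164 and 196 and cortex 190, 156 and 220, overlapping almost entirely, and the difference was -0.15 (SE 0.18, limma adjusted p = 0.590). The test of the difference between the sites for C1qb gave 0.20 (SE 0.20, limma adjusted p = 0.637).

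C1qa, the A chain, read 160, 169, 172, 166 and 188 in first-site retina and 188, 198, 182, 202 and 183 in first-site cortex, with 1 retina array inside the range of cortex. At site 2 the order was the other way round, with 255, 299 and 261 in retina above 229, 209 and 245 in cortex and no overlap. The C1qa difference was -0.15 at the first site (95% confidence interval -0.30 to 0.01, limma adjusted p = 0.120) and 0.24 at site 2 (95% confidence interval -0.06 to 0.54, limma adjusted p = 0.205). The change between the sites was 0.38 (SE 0.13) and missed the threshold (limma adjusted p = 0.0944). Over the 16 arrays the levels of C1qa and C1qb correlated at r = 0.77 (rho 0.81), whereas C1qc correlated with C1qb at r = 0.27 (rho 0.26) and with C1qa at r = -0.01 (rho 0.18). These correlations describe 16 arrays that share 2 RNA pools and 2 sites.

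Csf1r, the receptor for the growth factors CSF1 and IL-34, gave 125, 123, 126, 150 and 127 in first-site retina and 179, 156, 148, 171 and 189 in first-site cortex. Only the retina array at 150 reached into the cortex range. Its difference was -0.34 (SE 0.091, limma adjusted p = 0.00745). Site 2 retina arrays read 132, 164 and 166 and the cortex arrays 186, 314 and 201. These did not overlap, but the cortex spread was wide because of replicate 2 at 314, and the difference of -0.53 (SE 0.21) did not pass the test (limma adjusted p = 0.106). With 1 array left out it ran from -0.66 to -0.31, smallest without cortex replicate 2. None of these 6 fits was called (limma adjusted p 0.0768 to 0.274).

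Cx3cr1, the receptor for the neuronal chemokine fractalkine, was the member with the smallest contrast between tissues at site 2. It read 151, 174, 153, 115 and 197 in first-site retina and 189, 176, 181, 169 and 192 in first-site cortex. The retina arrays spread on both sides of the cortex arrays. At site 2 the values were 113, 95.1 and 115 in retina and 147, 71.1 and 135 in cortex, where the low cortex value is replicate 2. Its difference was -0.20 (95% confidence interval -0.45 to 0.05, limma adjusted p = 0.182) at the first site, a call gained without retina replicate 5 (-0.28, limma adjusted p = 0.0499). At site 2 it was -0.06 (95% confidence interval -0.67 to 0.55, limma adjusted p = 0.884). Cx3cl1, which encodes fractalkine, was higher in retina at both sites in its brighter probe set, by 0.63 (SE 0.056, limma adjusted p = 6.6e-07) and 1.04 (SE 0.15, limma adjusted p = 0.00161). Its dimmer probe set was called higher at the first site (0.80, limma adjusted p = 0.0112). At site 2 that probe set had the opposite sign and was not called (-0.35, limma adjusted p = 0.495).

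Of the lysosomal members, Laptm5 and Cd68 were lower in retina at both sites, Lyz2 at the first site, and Ctss went the other way. Cd68, a heavily glycosylated membrane protein of macrophage endosomes and lysosomes, read 63.7, 81.0, 65.9, 95.2 and 74.2 in first-site retina and 135, 128, 121, 123 and 107 in first-site cortex. Site 2 gave 72.8, 70.4 and 73.2 in retina and 128, 155 and 148 in cortex. The tissues did not overlap at either site. The Cd68 difference was -0.60 (SE 0.12, limma adjusted p = 6.4e-04) at the first site and -0.85 (SE 0.15, limma adjusted p = 0.00459) at site 2, and the call held without any single array at each site.

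Laptm5, a lysosomal membrane protein of haematopoietic cells, read 195, 239, 252, 255 and 262 in first-site retina and 357, 321, 358, 336 and 365 in first-site cortex. Site 2 retina read 104, 132 and 106 and cortex 214, 296 and 252. Every retina array was below every cortex array of its site. The difference was -0.51 (SE 0.081, limma adjusted p = 1.5e-04) at the first site and -1.05 (SE 0.17, limma adjusted p = 0.00294) at site 2, and both calls held without any single array. The change of -0.54 between the sites (SE 0.16) missed the threshold (limma adjusted p = 0.0701). It passed without first-site retina replicate 1 (-0.61, limma adjusted p = 0.0403) or site 2 cortex replicate 1 (-0.65, limma adjusted p = 0.0293).

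Lyz2, the lysozyme of macrophages and granulocytes, was dim in both tissues. First-site retina gave 7.31, 6.07, 5.62, 4.51 and 14.6, all at or under the floor, and first-site cortex gave 35.8, 39.7, 33.9, 34.7 and 28.0, of which 4 of 5 were above it. Because no retina array was above the floor, the fold is a bound: Lyz2 was at least 1.43-fold lower in retina. The fitted difference was -1.11 (SE 0.12, limma adjusted p = 5.0e-06). Site 2 retina read 24.6, 17.0 and 11.5, with 1 of 3 above the floor, and cortex 36.0, 31.9 and 30.5, all above it. The tissues were again separate, and the difference of -0.55 (SE 0.18) lay just outside the threshold (limma adjusted p = 0.0534), inside it without retina replicate 1 (-0.69, limma adjusted p = 0.0356). Lyz1, a near-identical neighbour of Lyz2, could contribute to these probes. The probe set annotated to both genes read 2.78 to 9.04 over the 16 arrays.

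Ctss encodes cathepsin S, a cysteine protease of antigen-presenting cells that cuts the invariant chain of MHC class II. It was the only one of the 10 genes called higher in retina. First-site retina read 399, 353, 373, 403 and 294 and first-site cortex 227, 231, 256, 188 and 186, with no overlap. The difference was 0.70 (SE 0.11, limma adjusted p = 8.1e-05). At site 2 the retina arrays read 414, 382 and 369 and the cortex arrays 218, 393 and 210, where replicate 2 at 393 lay inside the retina range. With it the difference was 0.54 (SE 0.23, limma adjusted p = 0.128), and without that array it was 0.81 (limma adjusted p = 3.0e-04). Across the 16 arrays Ctss ran against C1qc (r = -0.78, rho -0.78).

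Aif1, which encodes the actin-binding protein IBA1 widely used to stain microglia, was close to background. All first-site arrays were at or under the floor, at 6.12 to 9.34 in retina and 4.84 to 21.6 in cortex. At site 2 the retina arrays read 13.2, 7.20 and 5.56 and the cortex arrays 6.40, 27.6 and 19.5, and 2 of the 3 cortex arrays were above the floor. The fitted differences were -0.23 (SE 0.15, limma adjusted p = 0.236) and -0.42 (SE 0.25, limma adjusted p = 0.267), the second of which was called without cortex replicate 1 (-0.69, limma adjusted p = 0.0382).

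**Figure D2:**
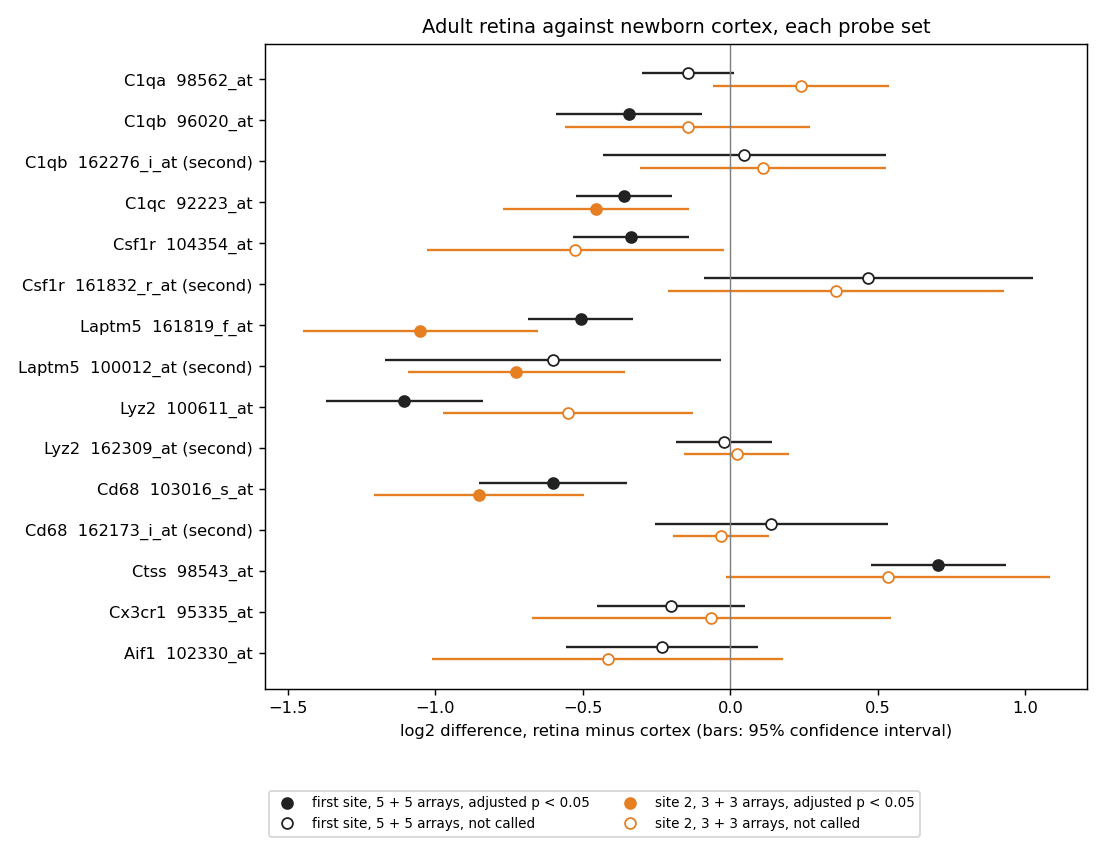
Log2 difference, retina minus cortex, of each of the 15 probe sets at the first site (black) and site 2 (orange). Bars are 95% confidence intervals from limma, filled points have an adjusted p under 0.05, and "second" marks the dimmer probe set of a gene. Brighter probe sets of Laptm5 and Cd68 lie below 0 at both sites, at -0.51 and -1.05 and at -0.60 and -0.85, and Ctss lies above 0 at 0.70 and 0.54.

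Read by overlap of the arrays rather than by the test, Laptm5, Lyz2 and Cd68 were separate with retina lower at the first site, where 23.5% of all genes were. Ctss was separate with retina higher, where 21.0% were. At site 2, C1qc, Csf1r, Laptm5, Lyz2 and Cd68 were separate with retina lower (26.3% of all genes) and C1qa with retina higher (26.6%). None of the 10 genes was called for a tissue difference that changed between the sites by limma, against 4.87% of all genes (3.41% with a higher and 1.47% with a lower difference at site 2), while 3 were under an unadjusted p of 0.05 (C1qa, Laptm5 and Lyz2). The ratio of the highest to the lowest of the 4 group means was 3.05 for Laptm5 and between 1.39 (C1qc) and 1.99 (Cd68) for the other genes, leaving out Lyz2 and Aif1, which have groups with no array above the floor.

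The same tissue gave different levels at the different sites for several members. In retina, 5 genes were called between the sites, where 40.1% of all genes were (27.8% higher and 12.3% lower at site 2). C1qa was higher at site 2 by 0.62 and C1qb by 0.72, whereas Laptm5 changed by -0.98 and Cx3cr1 by -0.48 (limma adjusted p between 1.2e-05 and 0.0465). The fifth was Lyz2, with a fitted 0.51 between values mostly under the floor (0 of 5 and 1 of 3 arrays above it), and its call was lost with values raised to the floor, which left 4. The Cx3cr1 call held without first-site retina replicate 4 and was lost in the other 7 fits that left out 1 retina array. In cortex, 3 were called, where 20.3% of all genes were (13.5% higher and 6.80% lower at site 2). C1qb was higher at site 2 by 0.52, Laptm5 changed by -0.44 and Cx3cr1 by -0.61 (limma adjusted p between 0.0151 and 0.0255). C1qc did not pass in either tissue, at -0.07 and 0.02. Both retina count and cortex count moved when arrays were left out. Without site 2 retina replicate 1, 3 genes were called in retina (C1qa, C1qb and Laptm5). Without site 2 cortex replicate 1 or 3, 2 were called in cortex, and without replicate 2 Cx3cr1 was no longer among the 3. Over the 4 groups, C1qa ranked site 2 retina, site 2 cortex, first-site cortex, first-site retina, with only the last pair overlapping. Laptm5 ranked first-site cortex, site 2 cortex, first-site retina, site 2 retina, with only the middle pair overlapping.

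A gene's probe sets did not always move together, and for C1qb and Laptm5 they moved in opposite directions between the sites. In the array maker's naming, an _f_at probe set has probes shared within a gene family, an _s_at set has probes shared by several transcripts, and _i_at and _r_at sets were made under relaxed rules. The second C1qb probe set, 162276_i_at, read 134, 74.3, 117, 96.3 and 140 in first-site retina and 77.1, 67.8 and 57.2 in site 2 retina. In cortex it read 123, 63.7, 164, 78.9 and 125 at the first site and 61.7, 66.7 and 54.4 at site 2. It was thus dimmer at site 2 in the group means of both tissues, by differences of -0.60 (limma adjusted p = 0.0534) and -0.67 (limma adjusted p = 0.0564), where the brighter probe set 96020_at was higher there. Over the 16 arrays the pair of C1qb probe sets correlated at r = -0.78 (rho -0.81). Between tissues, 162276_i_at differed by 0.05 (limma adjusted p = 0.891) and 0.11 (limma adjusted p = 0.688).

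The brighter Laptm5 probe set is 161819_f_at and the second is 100012_at. The second read 36.9, 39.2, 39.1, 39.1 and 40.6 in first-site retina and 122, 101 and 144 in site 2 retina. In cortex it read 150, 96.8, 45.9, 43.1 and 43.0 at the first site and 215, 206 and 213 at site 2. First-site cortex was uneven, with replicates 1 and 2 well above the other 3 arrays. From the first site to site 2 it was higher by 1.32 in retina (limma adjusted p = 0.00114) and by 1.45 in cortex (limma adjusted p = 0.00201), against falls of the brighter probe set in both. The tissue contrast had the same sign in both Laptm5 probe sets: 100012_at differed by -0.60 at the first site (SE 0.26, limma adjusted p = 0.0784, arrays separate) and was called at -0.73 at site 2 (SE 0.16, limma adjusted p = 0.0107). The first-site difference of 100012_at was called without cortex replicate 4 or 5 (limma adjusted p = 0.0442 and 0.0426).

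**Figure D3:**
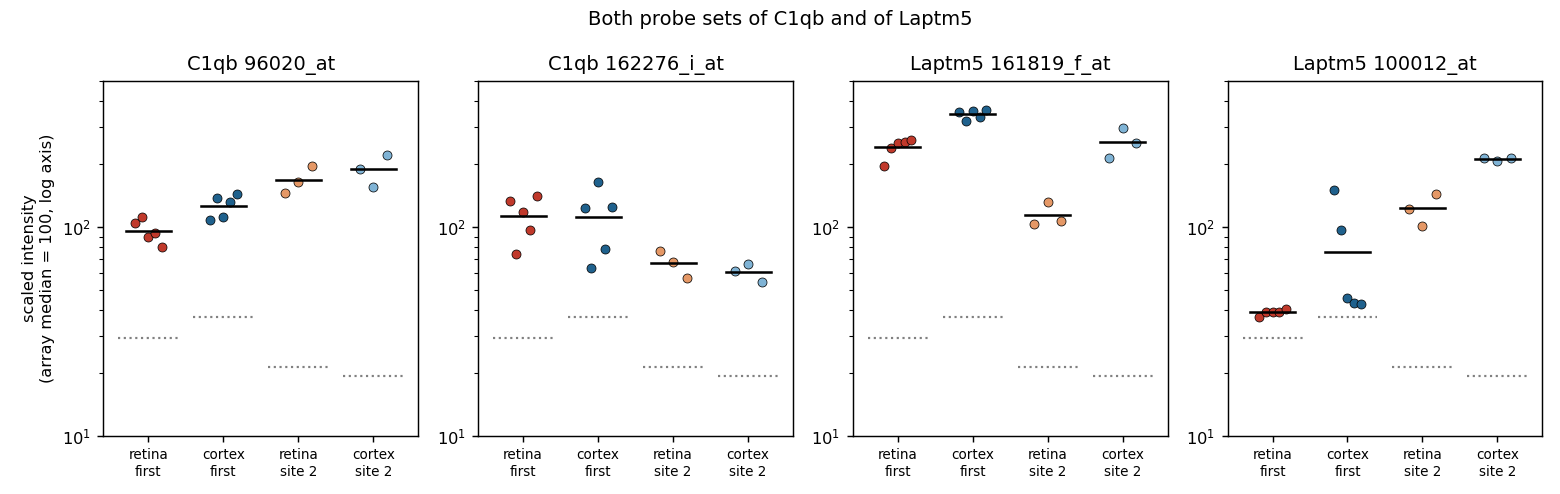
Scaled intensity (log axis, array median = 100) of both probe sets of C1qb and of Laptm5 in the 4 groups. Points are arrays, bars are group means, and dotted lines mark the highest no-target control among a group's arrays. From the first site to site 2, the mean of 96020_at is higher and that of 162276_i_at lower in both tissues, and 161819_f_at falls while 100012_at rises from 39.0 to 123 in retina and from 75.7 to 211 in cortex.

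The second Csf1r probe set, 161832_r_at, read 96.4, 111, 105, 75.4 and 52.1 in first-site retina and 73.4, 82.1, 51.6, 77.2 and 22.7 in first-site cortex, with wide overlap. Its sign was opposite to that of the brighter Csf1r probe set, at 0.47 (SE 0.26, limma adjusted p = 0.159) and 0.36 at site 2 (SE 0.24, limma adjusted p = 0.315), and neither difference passed. When the log2 values of both probe sets were averaged, the Csf1r difference at the first site turned to 0.07 (limma adjusted p = 0.719). The second probe sets of Lyz2 (162309_at, 1.37 to 6.22) and Cd68 (162173_i_at, 1.44 to 21.8) were at or under the floor on all 16 arrays and say nothing about either gene. With all probe sets of a gene averaged, 3 members were lower in retina at the first site (C1qc, Laptm5 and Lyz2).

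Other genes of microglia and macrophages, from a list of 52 of which 37 were measured, were called lower in retina for 7 and higher for 1 at the first site, and lower for 7 and higher for none at site 2. Those called lower are 18.9% of the list at each site, below the 28.5% of all genes at the first site and near the 17.4% at site 2. Their median was -0.13 and -0.28. Coro1a, an actin regulator of leukocytes, fell from 305 ± 29.8 in cortex to 87.1 ± 18.4 (SD, n = 5) in retina, a difference of -1.65 (limma adjusted p = 1.1e-07), and differed by -1.43 at site 2. Lpl, lipoprotein lipase, differed by -1.59 and -2.22, and Tyrobp, the adaptor of several microglial receptors, by -0.67 and -0.70, all called. Cd53, a tetraspanin of leukocytes, was called lower but had no retina array above the floor at either site. At site 2 the retina level was lower by at least 3.03-fold, and at the first site, where 1 of 5 cortex arrays was above the floor, no fold can be given. Cd14, a co-receptor for lipopolysaccharide, was the exception at 0.37 (limma adjusted p = 0.00782) and 0.13 (not called). The summed level of the list was 2110 to 2369 in first-site retina and 2939 to 3071 in first-site cortex, and 1652 to 1797 and 2733 to 3537 at site 2. Coro1a and Lpl weigh heavily in these sums, Lpl with first-site means of 117 in retina and 387 in cortex. Most of the list was not called, 29 of the 37 genes at the first site and 30 at site 2. At or under the floor on all arrays were 5 of the 37. Which cells made these transcripts was not tested.

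The signalling partners of Csf1r and Cx3cr1 and the factors that maintain microglia gave 10 measured genes of 11 listed, with 2 called higher and 3 lower at the first site and 1 of each at site 2, shares of 20.0% and 30.0%, then 10.0% each. Over all genes the shares were 25.8% higher and 28.5% lower, then 19.9% and 17.4%. At or under the floor on all arrays were 3 of the 10. Cst3, cystatin C, was higher in retina by 1.04 (limma adjusted p = 1.8e-08) and by 0.68 at site 2 (limma adjusted p = 0.113). Tgfbr1, a receptor for TGF-beta, differed by -1.07 (limma adjusted p = 6.1e-04), with 1 of 5 retina arrays above the floor, and by -0.42 at site 2 (limma adjusted p = 0.522). Csf1, the ligand of Csf1r, read 114 ± 11.1 in retina and 125 ± 19.0 in cortex (SD, n = 5), a difference of -0.11 (limma adjusted p = 0.471). It is named here for its role and not by the rule for named genes.

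Of 39 other complement genes listed, 30 were measured, with 6 called higher and 5 lower in retina at the first site and 5 in each direction at site 2 (medians -0.02 and -0.08). That is 20.0% and 16.7% of the list at the first site, beside 25.8% and 28.5% of all genes, and 16.7% each way at site 2, beside 19.9% and 17.4%. At or under the floor on all arrays were 7 of the 30. The counts include calls at such levels: Cfi was called higher and Cr2 lower at both sites, and Cd46 lower at site 2. Every group mean of these genes was below 12.6, the lowest floor of any array. The highest were Vtn (vitronectin, 4.10 and 4.09), Cd59a (an inhibitor of the membrane attack complex, 3.86 and 3.51) and Clu (clusterin, 2.35 and 2.64), which regulate the terminal steps. Cr1l, which encodes the membrane complement regulator Crry, was lower in retina at -2.07 and -1.57, with 1 of 5 first-site retina arrays above the floor. All 8 of these differences were called. Other lysosomal genes, unlike Cd68 and Laptm5, were mostly called higher in retina. Of 30 listed, 27 were measured, with 16 called higher and 4 called lower at the first site, and 15 and 2 at site 2, with medians of 0.56 and 0.72. Those called higher are 59.3% and 55.6% of the list, beside 25.8% and 19.9% of all genes. Tpp1, a lysosomal peptidase, was higher by 2.26, Lgmn, the asparaginyl endopeptidase, by 1.87, Npc1, a cholesterol transporter, by 1.28 and Ctsd, cathepsin D, by 1.22, whereas Glb1, beta-galactosidase, was lower at -0.97. Lysosomes are present in most cell types, and which cells these transcripts came from was not tested.

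**Figure D4:**
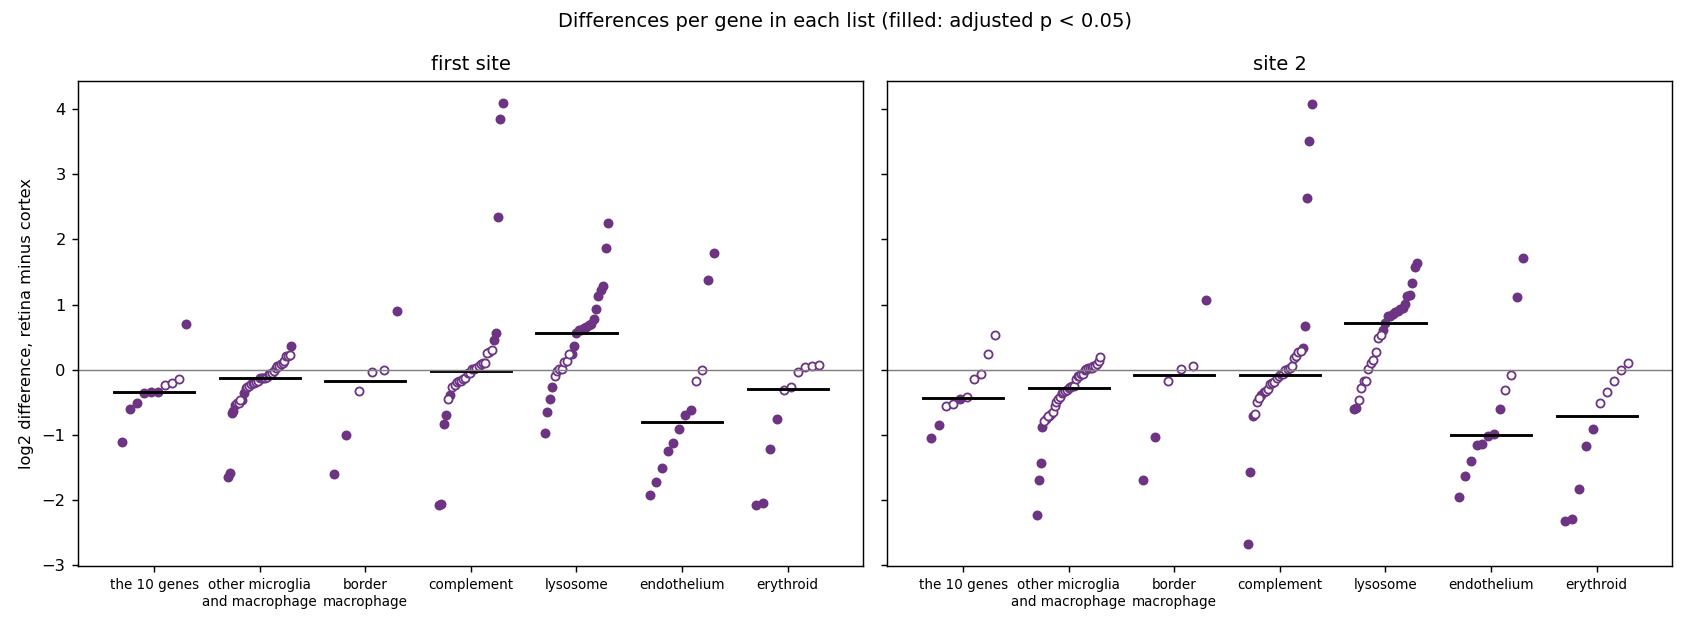
Log2 difference, retina minus cortex, of every measured gene in 7 lists at the first site (left) and site 2 (right), 1 point per gene ordered by value. Filled points have an adjusted p under 0.05 and bars are list medians. The 10 genes have medians of -0.34 and -0.44, other microglia and macrophage genes -0.13 and -0.28, lysosomal genes 0.56 and 0.72, and endothelial genes -0.81 and -1.0.

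Markers of other cell types were counted in the same way, and at each site most endothelial genes and most astrocyte and Müller glia genes were called, whereas most monocyte, granulocyte and lymphocyte genes were not. Border macrophages line vessels and meninges and express most of the 10 genes. Of their 6 measured markers, Mrc1, the mannose receptor, read 56.5 ± 6.99 in cortex and 8.02 ± 3.58 in retina (SD, n = 5) at the first site, with no retina array above the floor at either site. Its retina level was lower by at least 2.34-fold at the first site (limma adjusted p = 2.1e-07) and by at least 2.89-fold at site 2 (limma adjusted p = 8.1e-04). Stab1, a scavenger receptor, differed by -1.01 and -1.03, and Lyve1, a hyaluronan receptor, by 0.90 and 1.07, all called. The other 3 were called at neither site. At each site 33.3% of the list was called lower and 16.7% higher. Of all genes, 28.5% were lower and 25.8% higher at the first site, and 17.4% and 19.9% at site 2. The list summed to 223 to 297 in first-site retina and 283 to 366 in first-site cortex, and to 199 to 235 and 253 to 280 at site 2. The part of these cells in the tissue differences of the 10 genes was not tested.

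Monocyte and granulocyte genes, which include other cells that make Lyz2, had 16 of 20 measured, 1 called higher (Mmp9, a matrix protease, 1.95) and 1 lower (Prtn3, a neutrophil protease, -0.68) at the first site, and 1 and 2 at site 2. Their shares are 6.25% each way at the first site, then 6.25% higher and 12.5% lower. Of all genes, 25.8% were called higher and 28.5% lower at the first site, and 19.9% and 17.4% at site 2. The sums of this list overlapped between the tissues at the first site, at 949 to 1184 in retina and 854 to 993 in cortex. At site 2 they were separate with retina higher, at 869 to 1011 and 719 to 843. Mmp9 weighs heavily in the site 2 sums, with means of 276 in retina and 58.6 in cortex. The median difference of the list was -0.16 there, opposite in sign to the sums. Lcn2, read from its brighter probe set, was called at neither site (-0.12 and -0.34). Its dimmer probe set was called higher in retina at both sites (1.21 and 1.77). Lymphocyte genes had 17 of 20 measured, 4 called higher and none lower at the first site and 1 and 1 at site 2, with 5 of the 17 at or under the floor on all arrays. Those called higher at the first site are 23.5% of that list, near the 25.8% of all genes, and 5.88% went each way at site 2. Of the 4, Cd3d and Cd2 had no array above the floor at either site, and Klrd1 had 2 of 5 retina arrays above it at the first site. Cd3d was also the gene called higher at site 2. Of 10 measured erythroid genes, 4 were called lower in retina at the first site and 5 at site 2, among them the globins Hba-a1 (-2.09) and Hbb-b2 (-2.05). Their sum was 943 to 1102 in first-site retina and 3523 to 3953 in first-site cortex. Endothelial genes were called lower for 8 of 12 and higher for 2 at each site, shares of 66.7% and 16.7% beside those over all genes given above. Cldn5, a tight junction protein, differed by -1.92 and Flt1, a VEGF receptor, by 1.79, and the sum was 1344 to 1543 in retina and 1980 to 2183 in cortex at the first site. Astrocyte and Müller glia genes were called higher in retina for 8 of 12 and lower for 2 at the first site, and for 6 and 1 at site 2. The share called higher at the first site was 66.7%, beside 25.8% of all genes, and the background at site 2 was 19.9%. How far these cell types bear on the levels of the 10 genes was not tested.

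Genes whose pattern over the 16 arrays was most like that of the members were looked for among 7236 named genes above the floor in at least 1 group. The mean of C1qa, C1qb and C1qc was most like Wdr45b (r = 0.98, rho 0.97), then Fibp (r = 0.95, rho 0.96), Meis3 (r = 0.95, rho 0.96), Alad (r = 0.95, rho 0.91) and Imp3 (r = 0.95, rho 0.97). Lyz2 was most like Capn5 (r = 0.94, rho 0.91), Capn2 (r = 0.94, rho 0.84) and Uchl1 (r = 0.94, rho 0.92). Cx3cr1 was most like Muc13 (r = 0.93, rho 0.92), Siah1-ps1 (r = 0.89, rho 0.89) and Rac2 (r = 0.89, rho 0.87). These are descriptions over arrays that share 2 RNA pools and 2 sites, and among the members themselves the closest pair was C1qc and Cd68 (r = 0.82, rho 0.76).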

How the data were processed

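The authors' deposited table holds intensities on a linear scale, already summarised to 1 value per probe set. How the authors summarised, background-corrected or scaled them is not given in the sources used here. Of 12488 probe sets, 66 controls were left out, which left 12422. Of these 10833 had 1 gene symbol, 396 several and 1193 none, and 10817 of the named ones matched RefSeq by Entrez identifier. No column was left unused (0).

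Each array was scaled to a median of 100, 16 was added and log2 taken. limma 3.58.1 in R 4.3.3 (lmFit, eBayes with intensity trend) was fitted to each site on its own, and to all 16 arrays for the interaction and the site differences, with two-sided tests and Benjamini-Hochberg adjustment. A gene is read from its probe set with the highest mean. The number of arrays limits the precision. The procedure was tested on simulated arrays.

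The members, lists, floor and tests were chosen with earlier results of these data known. Named from each list were up to 4 called genes with the largest first-site difference and the called gene most against the majority, and, for likeness, the 5 (C1q chains) or 3 (Lyz2, Cx3cr1) genes with the highest r. Alternatives were other pseudocounts, scalings, filters and fits, a replicate block, and each array left out. A floor on low values was added after seeing the data.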

Additional observations from a re-analysis of the deposited data

Results flagged for a closer look

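In 30 checks of whether 1 array lay far from the rest of its group, 3 did. All 3 were in first-site groups. The 30 checks are too few to cover all 15 probe sets in all 4 groups. That site 2 cortex replicate 2, described above, is not among the 3 therefore says nothing about that array. The checks share the same arrays and are not independent. Chance alone flags about 1 group in 20. C1qc read 306 on first-site cortex replicate 4 against 354 to 367 on the other 4 arrays, a gap of 0.796 of the group's range on the log2 scale. Csf1r read 150 on first-site retina replicate 4 against 123 to 127, a gap of 0.851 of the range. The second Cd68 probe set, 162173_i_at, read 21.8 on first-site retina replicate 5 against 1.82 to 2.62, a gap of 0.942 of the range, with all 5 arrays at or under the floor.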

How the results depend on the processing

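Of 906 probe set differences recomputed under an alternative, 863 stayed on their side of the threshold, uncalled ones that changed sign included. Of the rest, 23 lost a call, 19 gained one and 1 reversed. The total includes many differences far from the threshold, so it says little about the called ones. At the first site C1qb stayed called in 13 of 21 alternatives and Laptm5 in 21 of 21. At site 2 C1qc stayed called in 9 of 17. Without scaling, 3 members were lower in retina at the first site (Laptm5, Lyz2 and Cd68) beside 1 higher, 0 were lower at site 2, and 0 differed between sites in either tissue. Over all genes calls also fell without scaling. At the first site 18.5% were lower and 21.6% higher, and 3.79% were lower at site 2. Between sites, 1.83% differed in retina and 0.485% in cortex. Unscaled arrays differ in brightness by up to 4.73-fold. With all probe sets of a gene averaged, 3 were lower at the first site, 2 differed between sites in retina (C1qa and Cx3cr1), and Csf1r at the first site reversed to 0.066. With all 16 arrays in one fit, 5 were lower and 1 (Ctss) higher at site 2. With the pseudocount added before centring, 1 was higher (Ctss) and 2 lower at site 2, beside 20.1% and 17.9% of all genes. Shares over all genes were computed only for the alternatives in pseudocount and scaling. Member counts under the other alternatives therefore have no background beside them. Among probe sets above the median only, 1 member (Laptm5) had a tissue difference that changed between sites. The causes were not tested.

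Leaving out each array in turn gave 5 to 6 members lower and 1 to 1 higher at the first site, 2 to 3 lower and 0 to 1 higher at site 2, 3 to 5 between sites in retina, 2 to 3 in cortex and 0 to 1 for the interaction.

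Arrays of both tissues share replicate numbers. Same-numbered deviations correlated at -0.09 to 0.06 at the first site and 0.03 to 0.12 at site 2. The same-numbered cortex array was the closest one for retina replicate 4 at the first site and for replicates 2 and 3 at site 2. With so few arrays this cannot decide whether the numbers pair them, and the main fits used no block. With the replicate number as a block, 5 members were lower at the first site (C1qb lost, limma adjusted p = 0.0521) and 2 at site 2 (C1qc lost, limma adjusted p = 0.0587), and the second Csf1r probe set was called at the first site (0.47, limma adjusted p = 0.0385). Of the values tested with the block, no other call changed. Signal near the floor limits Lyz2 and Aif1.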
